A study of Homo sapiens with 15 samples.

Results

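Aminoacyl-tRNA synthetases are the enzymes that join each amino acid to its transfer RNA. The genes described here are the 37 protein-coding genes whose symbol is a letter for an amino acid followed by ARS1 or ARS2, with EPRS1, FARSA and FARSB added, among the 60649 genes of the count table. Of these, 18 encode cytosolic enzymes, 17 encode mitochondrial enzymes (every symbol ending in ARS2) and 2, GARS1 and KARS1, encode enzymes that work in both compartments, here called dual. All 37 passed the filter on low counts.

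Messenger RNA was sequenced from K562 cells, an established human leukaemia line with the BCR-ABL fusion and erythroid features. Cells were left untreated or were exposed for 24 h to 0.15, 0.25, 0.5 or 1 µM martinostat, an inhibitor of histone deacetylases. Each of the 5 groups held 3 independent biological replicates, and all 15 libraries came from this single parental line, with no genetic change between groups. The labels give no vehicle for the untreated cells. The question was which of these genes changed at each concentration, and whether the cytosolic and mitochondrial enzymes changed alike.

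A synthetase charges its transfer RNA in 2 chemical steps, activation of the amino acid with ATP and transfer to the RNA. The enzymes fall into structural class I and class II, which have unrelated catalytic folds. In animal cells the mitochondrial enzymes are also encoded in the nucleus and imported, so that most amino acids have separate enzymes for the cytosol and for mitochondria. Several cytosolic enzymes assemble with the scaffold proteins AIMP1, AIMP2 and EEF1E1 into the multi-tRNA synthetase complex. Genes of the cytosolic enzymes include known targets of ATF4, the transcription factor of the amino acid response, which binds a composite C/EBP-ATF element. MYC with its partner MAX binds the E-box CACGTG at many growth genes.

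Promoter sequences, from 250 bases before to 50 bases after the start of a gene, were available for 30 of the 37 genes in 39 RefSeq entries (GRCh38.p14). LARS1, VARS1, YARS1, AARS2 and VARS2 were among those with no entry. The core of the C/EBP-ATF element, TGATGNAA on either strand, was found in 6 of 14 cytosolic, 1 of 2 dual and 1 of 14 mitochondrial genes with an entry. The same core occurred in 3.62% of 35116 promoters of all genes and in 2.71% of 21613 promoters of protein-coding genes. These shares are per entry, and per entry the core was in 6 of 18 cytosolic, 1 of 3 dual and 1 of 18 mitochondrial promoters. The 8 windows below are all those found, shown because the core was in more cytosolic than mitochondrial promoters. The core is in capitals, and it reads as its reverse complement where it lies on the strand opposite to the gene.
AARS1 chr16:70289669-70289710 (- strand): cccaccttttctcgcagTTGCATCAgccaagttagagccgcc
CARS1 chr11:3057401-3057442 (- strand): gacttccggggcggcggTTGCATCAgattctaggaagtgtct
IARS1 chr9:92293686-92293727 (- strand): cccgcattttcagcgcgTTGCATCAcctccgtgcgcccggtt
MARS1 chr12:57488047-57488088 (+ strand): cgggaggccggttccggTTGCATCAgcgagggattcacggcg
NARS1 chr18:57621798-57621839 (- strand): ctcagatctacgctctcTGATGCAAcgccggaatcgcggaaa
TARS1 chr5:33440950-33440991 (+ strand): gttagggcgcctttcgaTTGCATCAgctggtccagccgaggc
GARS1 chr7:30594828-30594869 (+ strand): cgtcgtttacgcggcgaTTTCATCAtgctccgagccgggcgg
YARS2 chr12:32756070-32756111 (- strand): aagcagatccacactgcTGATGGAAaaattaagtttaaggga

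In MARS1, CARS1, TARS1, IARS1, NARS1 and GARS1 the core lay close to a RefSeq start of the gene. CARS1, TARS1 and GARS1 each have another entry, with a different start, whose window held no core. Distances are from the start of the entry that held the core. The first base of the core was 4 bases before the start of MARS1, 2 before that of CARS1, 13 before that of IARS1 and 33 before that of GARS1. It lay 14 bases from the start of NARS1 and 2 bases from that of TARS1, in the transcribed direction. In AARS1 and YARS2 it was farther upstream, at 187 and 197 bases.

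The E-box CACGTG, which reads the same on both strands, was found in 1 of 14 cytosolic genes (IARS1), in neither dual gene and in 3 of 14 mitochondrial genes (CARS2, EARS2, MARS2). CARS2 has another entry, with a different start, whose window held no E-box. The share of the E-box over all promoters was 7.26%, and over protein-coding promoters 8.35%. These shares are per entry, and per entry the E-box was in 1 of 18 cytosolic, 0 of 3 dual and 4 of 18 mitochondrial promoters. These windows are shown because 2 of the genes, MARS2 and EARS2, had the lowest log2 fold changes of the mitochondrial enzymes at 1 µM. The next lowest, YARS2, WARS2 and LARS2, had promoter entries without an E-box. A link between the E-box and the response was not tested. The E-box is in capitals, and in IARS1, which holds both motifs, the matches did not overlap.
IARS1 chr9:92293861-92293900 (- strand): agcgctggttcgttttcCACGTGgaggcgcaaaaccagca
CARS2 chr13:110706496-110706535 (- strand): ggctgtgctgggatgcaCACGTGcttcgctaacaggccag
EARS2 chr16:23557343-23557382 (- strand): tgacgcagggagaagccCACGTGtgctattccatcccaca
MARS2 chr2:197705341-197705380 (+ strand): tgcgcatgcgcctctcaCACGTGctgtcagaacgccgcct

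HARS1, for the cytosolic histidine enzyme, and HARS2, for the mitochondrial one, are neighbours that are read in opposite directions on chromosome 5. Their RefSeq starts lie 85 bases apart, and the genes as annotated in GENCODE share 108 bases. The promoter window of HARS2 is shown because it holds both starts. Capitals run from the start of HARS1 to the start of HARS2, and neither motif was found in it.
HARS2 chr5:140691205-140691504 (+ strand): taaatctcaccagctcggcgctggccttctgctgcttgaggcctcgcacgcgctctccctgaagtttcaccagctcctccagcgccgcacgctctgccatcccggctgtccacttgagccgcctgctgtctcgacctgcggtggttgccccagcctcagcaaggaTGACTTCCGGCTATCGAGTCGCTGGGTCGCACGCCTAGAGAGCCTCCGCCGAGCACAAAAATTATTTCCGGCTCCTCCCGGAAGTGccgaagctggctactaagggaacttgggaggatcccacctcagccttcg

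Library totals ranged from 23755510 to 32805574 counts. Values are given as CPM, the count of a gene relative to the library size after TMM scaling, which assumes that most genes are unchanged. A gene was called higher or lower where its p from the edgeR quasi-likelihood fit, adjusted by Benjamini-Hochberg over 23711 tested genes, was under 0.05. At 1 µM 38.8% of the tested genes were called higher and 27.5% lower, so the assumption of TMM scaling was not met by these calls. The sizes of the changes below therefore depend on the scaling. The 4 doses were compared with the same 3 untreated libraries. The third libraries at 0.25 and at 0.5 µM stood apart on principal component 3 of all genes (scores 70.1 and 75.4), so calls against untreated cells that change without this pair are also given. Of 10 markers of K562 cells, 9 averaged 1 CPM or more in untreated cells (HBE1 did not). Their summed level was 3565 to 3984 CPM untreated and 1123 to 1226 CPM at 1 µM. Of 13 markers of other blood cells and fibroblasts, 4 were at 0 in all untreated libraries, and their summed level went from 35.5–42.5 to 316–502 CPM at 1 µM. COL1A1 went from a mean of 4.36 to 398 CPM, and the other 12 summed to 32.2 to 37.9 CPM untreated and 21.4 to 29.3 CPM at 1 µM. Of the 11 tested, 5 were higher and 3 lower. The part of these shifts in the results below was not tested. In bulk RNA, fewer cells that express a gene and less of its mRNA per cell cannot be told apart.

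Under TMM scaling most synthetase genes were called lower at every dose. Of the 37, 25 were called lower at all 4 doses (13 of 18 cytosolic, 2 of 2 dual, 10 of 17 mitochondrial), against 15.1% of all tested genes and 32.5% of 9625 protein-coding genes averaging 10 CPM or more. Another 6 were lower at some doses: AARS1, RARS1 and VARS1 among the cytosolic and FARS2, HARS2 and SARS2 among the mitochondrial enzymes. The 5 that were called at no dose were QARS1, SARS1, AARS2, TARS2 and VARS2. Without the third libraries at 0.25 and 0.5 µM, QARS1 (−0.35), TARS2 (−0.31), FARS2 (−0.47) and VARS1 (−0.57) were called lower at 0.15 µM and VARS2 (−1.24, against −0.59 with them) at 0.5 µM. Leaving out the third library at 0.5 µM alone also called VARS2 lower there (−1.28), and DESeq2 called TARS2 lower at 0.15 µM. PARS2 alone was called higher at any dose, at 1 µM.

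At 0.15 µM, 27 of the 37 were lower and 0 were higher, with a median log2 fold change of −0.85. Of all tested genes 19.4% were lower and 31.9% higher, and of the protein-coding genes of at least 10 CPM 41.2% were lower. At 0.25 µM, 31 were lower and 0 higher (median −1.21), beside 24.8% and 37.4% of all tested genes and 49.8% lower among the protein-coding genes. At 0.5 µM, 29 were lower and 0 higher (median −1.28), beside 27.6% and 39.4% of all tested genes and 49.6% lower among the protein-coding genes. At 1 µM, 29 were lower and 1 higher (median −1.33), beside 27.5% and 38.8% of all tested genes and 49.1% lower among the protein-coding genes. DESeq2 and an unadjusted edgeR p under 0.05 also gave 0 higher synthetase genes at 0.15, 0.25 and 0.5 µM. The median over all tested genes at 1 µM was 0.32, and that over the protein-coding genes of at least 10 CPM was −0.40.

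**Figure D1:**
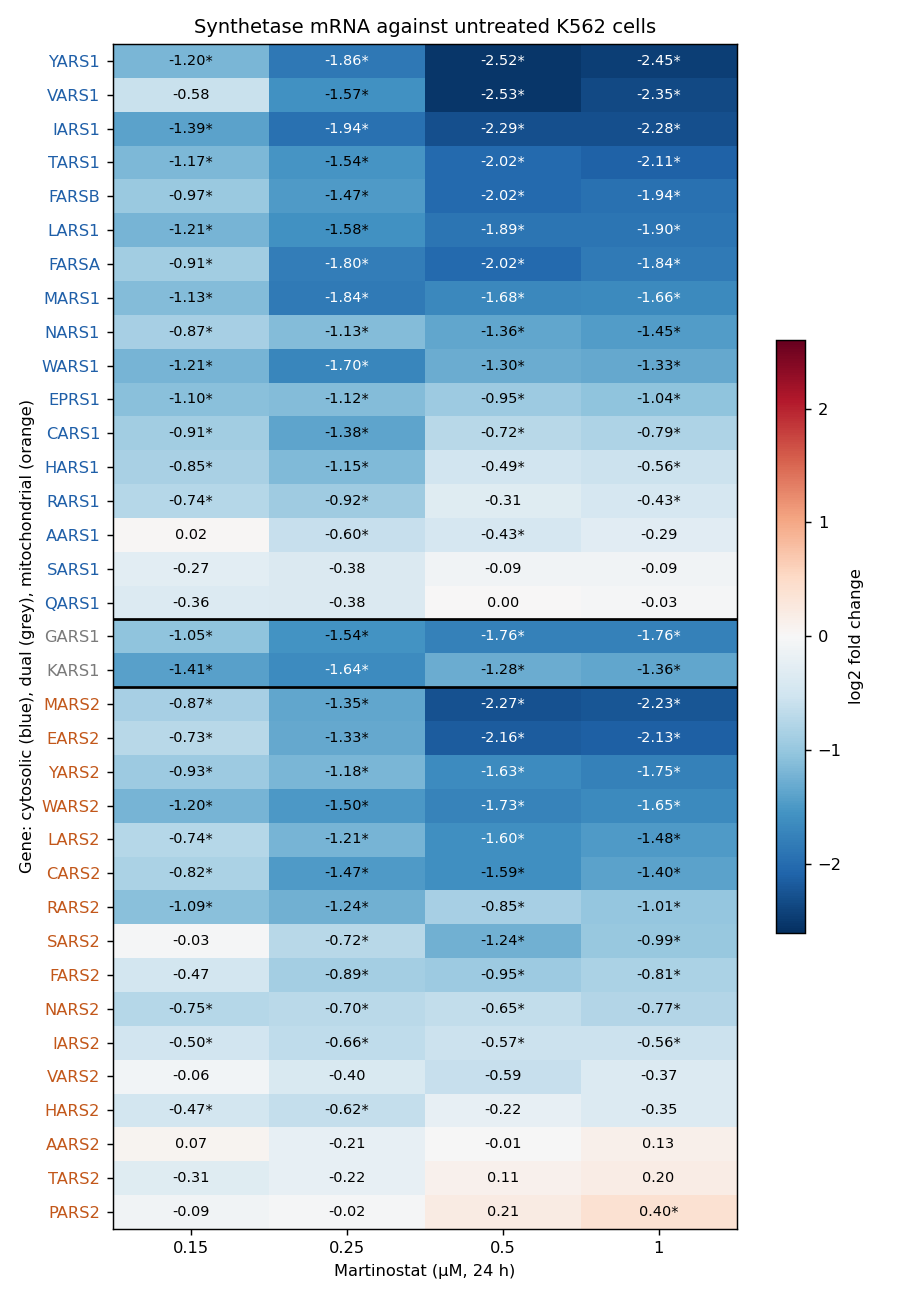
Log2 fold change of 35 synthetase genes (rows) against untreated cells at 4 martinostat doses in µM (columns), from edgeR on 3 libraries per group, with an asterisk where the adjusted p is under 0.05. Blue cells are lower and red cells higher. 23 rows carry an asterisk at all 4 doses, and PARS2, with 0.40 at 1 µM, is the single positive cell with one.

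The cytosolic genes had lower medians than the mitochondrial ones, a description that carries no test because the gene list was chosen with earlier results known. At 1 µM, 15 of 18 cytosolic, 2 of 2 dual and 12 of 17 mitochondrial genes were lower, and the median log2 fold changes were −1.56, −1.56 and −0.81. At 0.15 µM, 14, 2 and 11 were lower, with medians of −0.91, −1.23 and −0.63. Of the protein-coding genes of at least 10 CPM, 49.1% were lower at 1 µM and 41.2% at 0.15 µM. The classes also differed in level, with untreated medians of 133 CPM per kb of transcript for cytosolic and 23.1 for mitochondrial genes. The part of level in the difference between the classes was not tested. The ranges of the classes overlapped widely at 1 µM, from −2.45 to −0.03 for the cytosolic and from −2.23 to 0.40 for the mitochondrial genes.

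The size of these changes depended on scaling. With plain library totals the median of all tested genes at 1 µM was 0.35 higher (log2), and 69.3% of all calls were higher instead of 58.5%. The synthetase genes then held 25 lower and 4 higher at 1 µM (QARS1, AARS2, TARS2 and PARS2). Beside them, 4777 of all 23711 tested genes were lower and 10808 higher. The medians were −1.20 for cytosolic and −0.46 for mitochondrial genes. With TMM factors taken from genes of at least 10 CPM the shift was 0.38, with 24 lower and 4 higher. Of all 23711 tested genes, 4738 were then lower and 11102 higher. The order of the 2 classes was the same under both, as under DESeq2's scaling in edgeR (medians −1.50 and −0.75).

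Summed over its genes, the cytosolic class had 7434, 8154 and 8357 CPM in the untreated libraries and 3228, 2949 and 3266 CPM at 1 µM. The mitochondrial class had 1303, 1445 and 1380 CPM untreated and 832, 751 and 826 CPM at 1 µM. In percent of the untreated mean and in order of rising dose, the cytosolic sum was 55.6 ± 5.60, 40.3 ± 4.11, 39.3 ± 6.64 and 39.4 ± 2.17 (SD, n = 3). The mitochondrial sum was 67.2 ± 2.98, 57.4 ± 4.57, 56.8 ± 5.12 and 58.4 ± 3.29, and the dual sum 42.5 ± 4.83, 33.1 ± 3.04, 35.8 ± 6.92 and 34.6 ± 1.24. No treated library of any class reached the untreated range. Mitochondrial enzymes made up 13.2% ± 0.458 of the summed CPM of the 37 genes in untreated cells and 18.6% ± 0.155 at 1 µM (SD, n = 3), a share that does not depend on how libraries are scaled. Without TMM, all 37 genes together took 7984, 8438 and 8512 CPM of the plain totals in untreated cells and 4518, 4119 and 4576 at 1 µM.

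**Figure D2:**
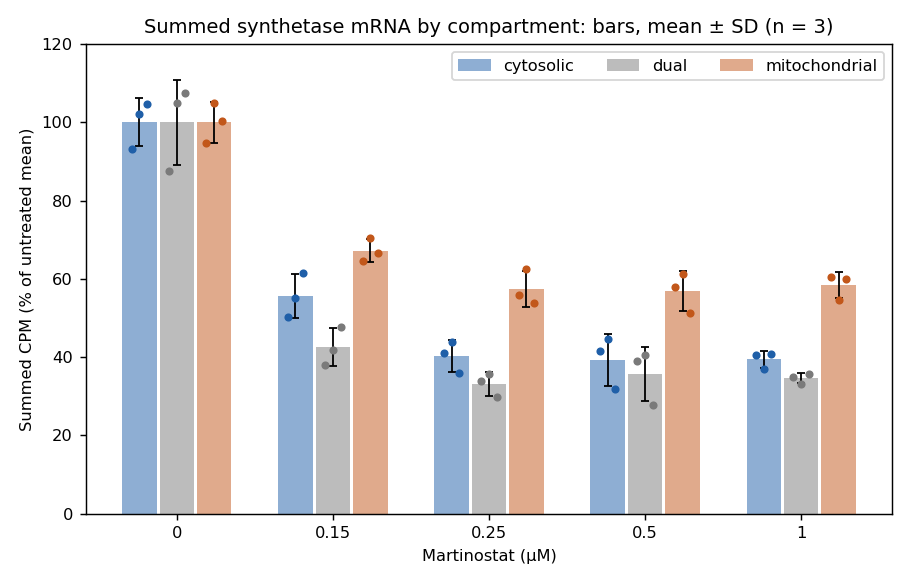
Summed CPM of the cytosolic, dual and mitochondrial synthetase genes (vertical axis, percent of the untreated mean) by martinostat dose in µM (horizontal axis). Points are libraries and bars the mean ± SD (n = 3). The cytosolic bars stand at 55.6% at 0.15 µM and 39.4% at 1 µM, the mitochondrial ones at 67.2% and 58.4%.

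Levels of different genes were compared per kb of the canonical transcript. In untreated cells the median was 133 CPM per kb for cytosolic, 240 for dual and 23.1 for mitochondrial genes. KARS1 had the highest level at 283 CPM per kb, followed by FARSA at 278 and YARS1 at 239. IARS2 was the only mitochondrial gene above 100, at 108 CPM per kb, and VARS2 the lowest of all at 0.874. At 1 µM the medians were 52.4, 84.2 and 13.3. SARS1, called at no dose, had the highest level there, at 192 CPM per kb, with QARS1 at 126.

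The 3 cytosolic genes with the lowest fold changes at 1 µM were YARS1, VARS1 and IARS1, for the tyrosine, valine and isoleucine enzymes. YARS1 (chromosome 1, 32775237 to 32818031) had 536, 593 and 622 CPM in the untreated libraries. It had 213, 258 and 293 CPM at 0.15 µM, 165, 174 and 143 at 0.25 µM, 108, 120 and 76.5 at 0.5 µM, and 107, 98.6 and 115 at 1 µM. Every treated library was below every untreated one, and the libraries at 0.5 and 1 µM lay below those at 0.15 and 0.25 µM. The log2 fold change was −1.20 ± 0.17 (SE) at 0.15 µM and −2.45 ± 0.18 at 1 µM (edgeR, adjusted p = 5.7e-10).

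VARS1 (chromosome 6, 31777518 to 31795752) had the highest CPM of the family untreated, at 934, 929 and 1069. At 0.15 µM it had 673, 613 and 678 CPM, a log2 fold change of −0.58 ± 0.28 that did not pass (edgeR, adjusted p = 0.101). It had 380, 406 and 201 CPM at 0.25 µM, 196, 227 and 83.7 at 0.5 µM, and 186, 192 and 199 at 1 µM. The third libraries at 0.25 and 0.5 µM were the low ones, while the 3 libraries at 1 µM lay close together. At 1 µM the change was −2.35 ± 0.30 (adjusted p = 2.56e-06), and without that pair of libraries the change at 0.15 µM of −0.57 passed the test.

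IARS1 (chromosome 9, 92210207 to 92293854), the gene whose promoter held both motifs, had 710, 756 and 767 CPM untreated. Its values were 275, 326 and 252 CPM at 0.15 µM, 164, 212 and 204 at 0.25 µM, 157, 176 and 124 at 0.5 µM, and 162, 133 and 164 at 1 µM. The groups at 0.15 µM and above did not overlap the untreated one. The log2 fold change ran from −1.39 ± 0.16 at 0.15 µM to −2.28 ± 0.17 at 1 µM (adjusted p = 8.27e-10).

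CARS1, HARS1 and RARS1, for the cysteine, histidine and arginine enzymes, had the highest fold changes among the cytosolic genes that were lower at 1 µM. All 3 were lowest at 0.25 µM. CARS1 had 98.8, 108 and 107 CPM untreated, 50.2, 59.4 and 57.9 at 0.15 µM, 36.9, 44.8 and 39.1 at 0.25 µM, 66.6, 65.9 and 58.0 at 0.5 µM, and 64.1, 59.4 and 57.8 at 1 µM. Its log2 fold change was −1.38 ± 0.13 at 0.25 µM and −0.79 ± 0.13 at 1 µM (adjusted p = 1.97e-05).

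HARS1 stood at 163, 179 and 173 CPM untreated, 85.0, 91.6 and 109 at 0.15 µM, 77.7, 83.4 and 70.3 at 0.25 µM, 122, 135 and 110 at 0.5 µM, and 127, 102 and 122 at 1 µM. All treated libraries lay below the untreated ones, those at 0.25 µM furthest. Its change at 1 µM was −0.56 ± 0.14 (adjusted p = 0.00175), and that call was lost under library totals (−0.20) and under TMM from genes of at least 10 CPM (−0.17).

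RARS1 stood at 221, 266 and 256 CPM untreated, 142, 137 and 165 at 0.15 µM, 135, 134 and 125 at 0.25 µM, 201, 225 and 173 at 0.5 µM, and 199, 169 and 182 at 1 µM. The libraries at 0.5 µM overlapped the untreated ones. RARS1 passed at 1 µM with −0.43 ± 0.14 (adjusted p = 0.0103), was not called at 0.5 µM (−0.31, adjusted p = 0.0551), and lost the call at 1 µM without the second untreated library (−0.38) and under library totals (−0.08).

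Other cytosolic genes called at 1 µM included TARS1 (−2.11), FARSB (−1.94), LARS1 (−1.90), FARSA (−1.84), MARS1 (−1.66), NARS1 (−1.45), WARS1 (−1.33) and EPRS1 (−1.04). FARSA and FARSB encode the α and β subunits of the phenylalanine enzyme, and their changes were within 0.2 of each other at 0.15, 0.5 and 1 µM. EPRS1 encodes a fused enzyme for glutamate and proline. Of the bases in MARS1 exons, 12.4% lie under exons of ARHGAP9 and DDIT3 on the other strand. In WARS1 that share was 10.6%, and whether counting used the strand is not stated.

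AARS1, QARS1 and SARS1, for the alanine, glutamine and serine enzymes, were the cytosolic genes not called at 1 µM. QARS1 had 291, 316 and 338 CPM untreated and 328, 287 and 313 at 1 µM. SARS1 had 363, 393 and 420 CPM untreated and 366, 356 and 380 at 1 µM. At 1 µM the groups of both genes overlapped, with log2 fold changes of −0.03 ± 0.18 and −0.09 ± 0.20. QARS1 was called higher there with library totals (0.33). At 0.25 µM every library was below the untreated ones, in QARS1 (257, 276 and 192 CPM) and in SARS1 (331, 330 and 239 CPM). These changes of −0.38 each were not called, but passed without the third library at 0.5 µM (−0.38 and −0.39). Without the third library at 0.15 µM both genes were called lower there (−0.54 and −0.52, against −0.36 and −0.27 with it). AARS1 had 428, 435 and 437 CPM untreated and 366, 336 and 359 at 1 µM, all below the untreated ones, where its change of −0.29 did not pass (edgeR, adjusted p = 0.13) and was above 0 with library totals (0.06). AARS1 was lower at 0.25 µM (−0.60) and 0.5 µM (−0.43), but 10 of 24 alternatives, DESeq2 among them, ended the call at 0.5 µM. Leaving out any untreated library lost it (−0.45, −0.43 and −0.43), as did leaving out the third library at 0.5 µM (−0.35) or the pair at 0.25 and 0.5 µM (−0.31). The call at 0.25 µM was lost under library totals (−0.08), TMM from genes of at least 10 CPM (−0.18) and a minimum of 10 counts in every library (−0.31).

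**Figure D3:**
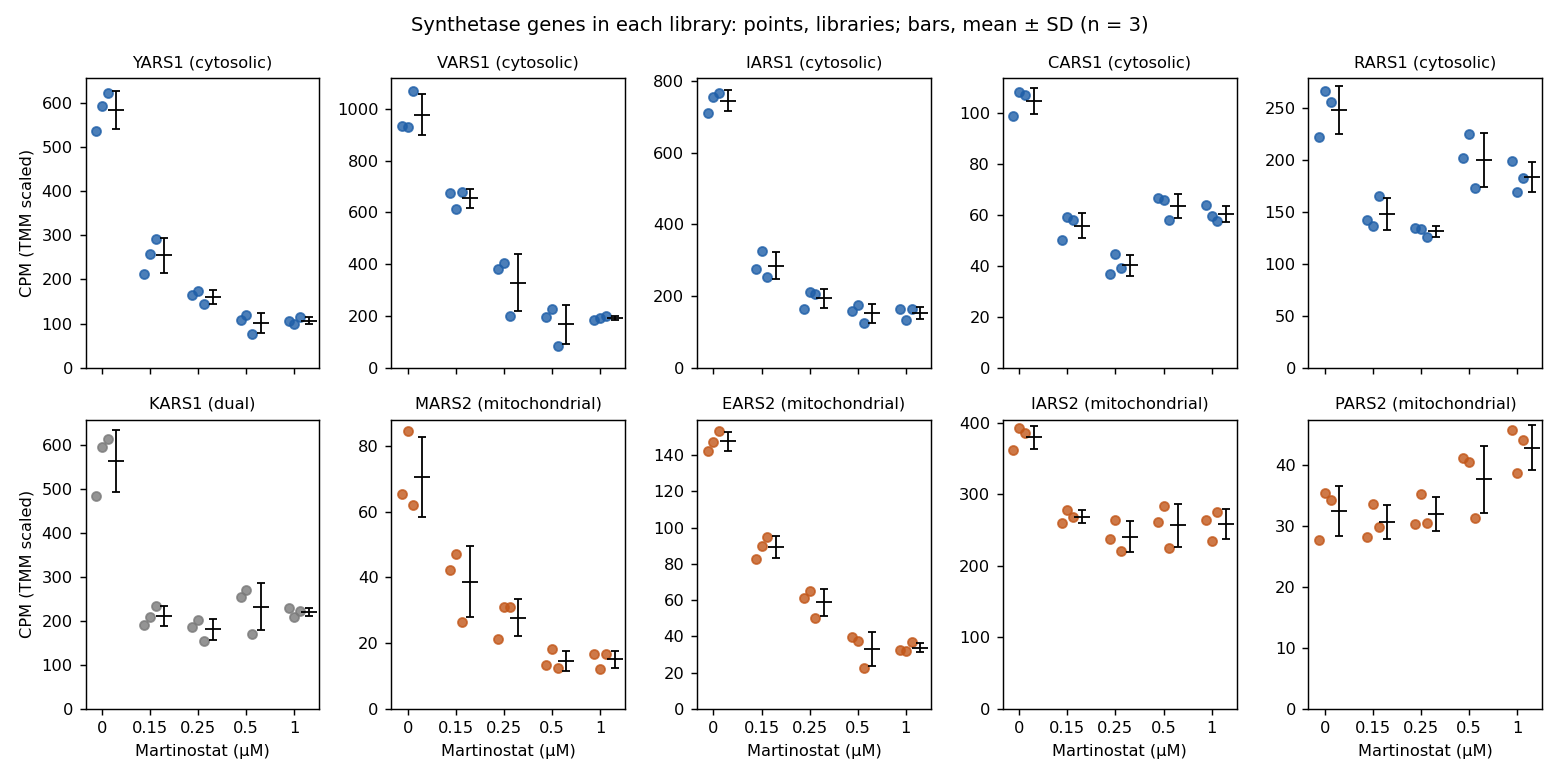
CPM (vertical axes, each from 0) of 10 synthetase genes in each library by martinostat dose in µM (horizontal axis). Points are libraries and bars the mean ± SD (n = 3). The means of YARS1, VARS1, IARS1, MARS2 and EARS2 step down to 0.5 µM, and those of CARS1, RARS1 and KARS1 are lowest at 0.25 µM. The libraries of VARS1 and of IARS1 at 0.25 and 0.5 µM overlap. The 1 µM libraries of PARS2 (38.8 to 45.8 CPM) lie above its untreated ones.

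Both dual genes were lower at all doses. GARS1, for the glycine enzyme, had 431, 499 and 509 CPM untreated, 206, 228 and 262 at 0.15 µM, 167, 170 and 156 at 0.25 µM, 151, 152 and 120 at 0.5 µM, and 137, 137 and 150 at 1 µM. Its log2 fold change was −1.05 ± 0.14 at 0.15 µM and −1.76 ± 0.14 at 1 µM (adjusted p = 3.43e-09). KARS1, for the lysine enzyme, had 482, 594 and 612 CPM untreated, 191, 208 and 234 at 0.15 µM, 186, 201 and 154 at 0.25 µM, 255, 270 and 170 at 0.5 µM, and 228, 209 and 222 at 1 µM. KARS1 had the lowest fold change of all 37 genes at 0.15 µM, −1.41 ± 0.17 (adjusted p = 2.08e-06), and was near it at 1 µM (−1.36 ± 0.17). Between 0.15 and 1 µM GARS1 was lower again, and KARS1 was not called.

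MARS2, EARS2 and YARS2, for the mitochondrial methionine, glutamate and tyrosine enzymes, had the lowest fold changes of their class at 1 µM. MARS2 had 65.4, 84.4 and 62.0 CPM untreated, 42.4, 47.1 and 26.6 at 0.15 µM, 21.2, 30.9 and 31.1 at 0.25 µM, 13.4, 18.1 and 12.5 at 0.5 µM, and 16.5, 12.1 and 16.7 at 1 µM. Its libraries at 0.5 and 1 µM were all below those at 0.25 µM. The change was −0.87 ± 0.22 at 0.15 µM and −2.23 ± 0.23 at 1 µM (adjusted p = 7.31e-08).

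EARS2 had 142, 147 and 153 CPM untreated, 82.9, 89.9 and 95.0 at 0.15 µM, 61.0, 65.0 and 50.2 at 0.25 µM, 39.7, 37.2 and 22.5 at 0.5 µM, and 32.7, 31.8 and 36.6 at 1 µM. No 2 groups up to 0.5 µM overlapped, and each was below the one before. The change was −0.73 ± 0.17 at 0.15 µM and −2.13 ± 0.18 at 1 µM (adjusted p = 4.25e-09).

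YARS2 had 48.9, 50.5 and 46.8 CPM untreated, 29.8, 24.8 and 21.9 at 0.15 µM, 19.7, 24.0 and 20.9 at 0.25 µM, 16.6, 17.9 and 12.7 at 0.5 µM, and 14.2, 14.9 and 14.3 at 1 µM. The treated libraries were all below the untreated ones, and its change at 1 µM was −1.75 ± 0.16 (adjusted p = 1.24e-08). Of its exon bases, 18.1% lie under exons of the other strand. The remaining mitochondrial genes lower at 1 µM below −0.8 were WARS2 (−1.65), LARS2 (−1.48), CARS2 (−1.40), RARS2 (−1.01), SARS2 (−0.99) and FARS2 (−0.81). The counts of SARS2 are uncertain, since 48.2% of its exon bases are shared with an overlapping gene of the same strand.

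IARS2 and NARS2 changed less. IARS2, the most abundant mitochondrial enzyme gene, had 361, 392 and 385 CPM untreated, 259, 278 and 268 at 0.15 µM, 238, 264 and 221 at 0.25 µM, 261, 283 and 225 at 0.5 µM, and 264, 235 and 276 at 1 µM. It was already at its lower level at 0.15 µM (−0.50 ± 0.13) and was −0.56 ± 0.13 at 1 µM (adjusted p = 0.00133). Under library totals IARS2 was not called at 1 µM (−0.20). The change of NARS2 at 1 µM was −0.77 under TMM scaling.

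HARS2, the neighbour of HARS1, had 44.9, 49.8 and 43.4 CPM untreated, 28.9, 34.1 and 36.5 at 0.15 µM, 26.9, 25.4 and 37.5 at 0.25 µM, 33.3, 34.9 and 50.1 at 0.5 µM, and 40.6, 33.5 and 34.2 at 1 µM. The third library at 0.5 µM was above all untreated ones. HARS2 had the highest fold change among the genes called at 0.15 µM (−0.47 ± 0.18, adjusted p = 0.0326) and was not called at 1 µM (−0.35, adjusted p = 0.0888). The call at 0.15 µM was lost without the first (−0.49) or second (−0.41) untreated library and without the first (−0.38) or second (−0.49) library at 0.15 µM. It was also lost under library totals (−0.12), TMM from genes of at least 10 CPM (−0.21) and the minimum of 10 counts (−0.30). Without the third library at 0.5 µM, HARS2 was called lower at 0.5 µM (−0.43) and at 1 µM (−0.35), and without that at 0.25 µM as well the values were −0.39 and −0.31, both called.

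PARS2, for the mitochondrial proline enzyme, had 27.8, 35.5 and 34.3 CPM untreated, 28.3, 33.7 and 29.9 at 0.15 µM, 30.3, 35.2 and 30.5 at 0.25 µM, 41.2, 40.6 and 31.3 at 0.5 µM, and 45.8, 38.8 and 44.1 at 1 µM. Its libraries at 1 µM were above all untreated ones, while the other groups overlapped them. The change at 1 µM was 0.40 ± 0.15 (edgeR, adjusted p = 0.0237), which DESeq2 also called. Leaving out the first untreated library (0.29), the first library at 1 µM (0.35) or the third at 1 µM (0.38) ended the call. Without the third libraries at 0.25 and 0.5 µM, PARS2 was also called higher at 0.5 µM (0.37). AARS2 (0.13) and TARS2 (0.20) were above 0 and not called at 1 µM, and both were called higher there with library totals (0.49 and 0.55). VARS2 had 3.31, 3.13 and 2.94 CPM untreated and 2.66, 2.35 and 2.27 at 1 µM, and 63.0% of its exon bases are shared with an overlapping gene.

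Between doses, the genes moved mainly up to 0.5 µM. From 0.15 to 0.25 µM, 12 synthetase genes were lower and 0 higher, beside 7.32% and 4.96% of all tested genes and 15.8% and 4.6% of the protein-coding genes of at least 10 CPM. The lowest changes were those of VARS1 (−0.99 ± 0.29), FARSA (−0.89 ± 0.23) and MARS1 (−0.70 ± 0.12). Without the third library at 0.15 µM or the third at 0.25 µM, 3 remained called lower, so this count rests on single libraries. Without the second library at 0.15 µM it was 7. By unadjusted edgeR p and by DESeq2, 0 were higher.

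From 0.25 to 0.5 µM, 8 were lower and 4 higher, beside 16% and 14.4% of all tested genes and 21.9% and 20.9% of the protein-coding genes of at least 10 CPM, so that the count of lower genes was at the background. Libraries with the same number deviated together between these 2 doses (correlations 0.27, 0.27 and 0.58). So did the second library at 0.25 µM and the first at 0.5 µM (0.24), so pairing by number is not settled. With the replicate number as a block 9 were lower, SARS2 being added (−0.52). The lower genes included VARS1 (−0.96), MARS2 (−0.92), EARS2 (−0.83), YARS1 (−0.66), FARSB (−0.54), TARS1 (−0.49) and YARS2 (−0.46). CARS1 (0.66 ± 0.13), HARS1 (0.66 ± 0.14), RARS1 (0.61 ± 0.14) and RARS2 (0.39 ± 0.14) were higher at 0.5 than at 0.25 µM, while still below untreated cells in mean. The call of RARS2 was lost in 12 of 24 alternatives, with 0.24 under library totals. Without the third libraries at both doses FARSB (−0.35) and YARS2 (−0.33) were not called. Without the third library at 0.5 µM, or without the third libraries at both doses, 8 were higher, with KARS1 (0.54 and 0.45) and QARS1 (0.55 and 0.42) among them. Without the second library at 0.25 µM, 5 were lower.

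From 0.5 to 1 µM, 0 of the 37 were called, and 0% of all tested genes were. Neither unadjusted edgeR p nor DESeq2 gave a synthetase gene in this step. The log2 changes of the 37 lay between −0.16 and 0.25. From 0.15 to 1 µM, 17 were lower and 2 higher, beside 23.1% and 21.5% of all tested genes and 34.4% and 23.2% of the protein-coding genes of at least 10 CPM. VARS1 (−1.77 ± 0.29), EARS2 (−1.40 ± 0.17) and MARS2 (−1.36 ± 0.22) changed furthest, and TARS2 (0.51 ± 0.13) and PARS2 (0.49 ± 0.15) were higher. The count of higher genes was 1 without the first library at 0.15 µM or the first at 1 µM, 5 without the third at 0.15 µM and 4 without the third at 0.25 µM.

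The 2 enzymes for an amino acid were then compared within each library, as the log2 ratio of the cytosolic to the mitochondrial count, which no scaling of libraries changes. There were 17 pairs, with EPRS1 used for both glutamate and proline and FARSA for phenylalanine. At 1 µM the ratio was lower in all 3 libraries than in all untreated ones for 11 pairs, higher for 5 and overlapping for 1. At 0.15 µM the counts were 8, 1 and 8, at 0.25 µM 9, 1 and 7, and at 0.5 µM 9, 6 and 2. No wider set of pairs was measured as a background. With 3 libraries against 3, the exact two-sided permutation test cannot go below p = 0.1, which every such non-overlapping pair had (adjusted p = 0.136 over 68 tests), so no pair could pass.

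TARS1/TARS2, for threonine, had the lowest change. Its log2 ratio was 3.05, 3.00 and 3.01 untreated and 0.60, 0.67 and 0.86 at 1 µM, a mean difference of −2.31. VARS1/VARS2 had a difference of −1.98, IARS1/IARS2 of −1.73, EPRS1/PARS2 of −1.45 and FARSA/FARS2 of −1.02. The VARS1/VARS2 value is uncertain, since VARS2 had 75, 68 and 65 counts at 1 µM and shares 63.0% of its exon bases with another gene. For IARS1/IARS2 the ratio went from 0.97, 0.95 and 0.99 to −0.70, −0.82 and −0.75, so that the mitochondrial enzyme had more counts than the cytosolic one at 1 µM. The ratio was also lower for YARS1/YARS2 (−0.70), NARS1/NARS2 (−0.68), AARS1/AARS2 (−0.42), LARS1/LARS2 (−0.42) and HARS1/HARS2 (−0.21).

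EPRS1/EARS2, for glutamate, had the highest change. Its log2 ratio was 2.09, 2.26 and 2.16 untreated, 1.80, 2.01 and 1.59 at 0.15 µM and 3.38, 3.12 and 3.27 at 1 µM. The ratio was below the untreated range at 0.15 µM (difference −0.37) and above it at 1 µM (1.08). Between those doses EARS2 was called lower (−1.40) and EPRS1 was not called. SARS1/SARS2 (0.90), CARS1/CARS2 (0.61), RARS1/RARS2 (0.58) and MARS1/MARS2 (0.57) were also higher at 1 µM, and WARS1/WARS2 overlapped (0.34). The SARS1/SARS2 value is uncertain, since SARS2 shares 48.2% of its exon bases with another gene. Adding 10 counts in place of 0.5 changed no sign at 1 µM.

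**Figure D4:**
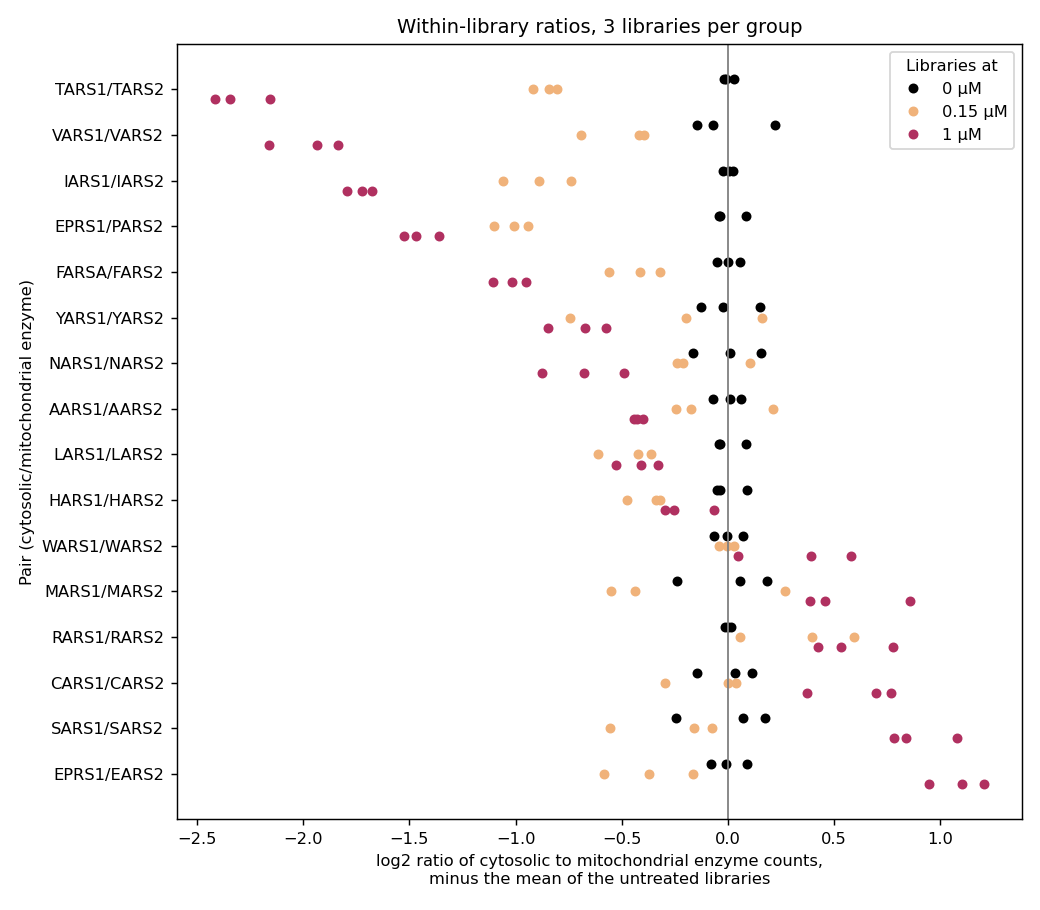
Log2 ratio of cytosolic to mitochondrial enzyme counts within each library, minus the untreated mean of the pair (horizontal axis), for 16 pairs (vertical axis). Points are the 3 libraries at 0, 0.15 and 1 µM. At 1 µM the points of 10 pairs lie left of their untreated points and those of 5 pairs right of them, from a mean of −2.31 for TARS1/TARS2 to 1.08 for EPRS1/EARS2.

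The motif in the promoter was set beside the response of the cytosolic and dual genes. The 7 genes with TGATGNAA had a median log2 fold change of −1.66 at 1 µM, and 6 of them were lower. The 9 with a promoter entry and no such core had a median of −1.04, and 7 were lower. At that dose 27.5% of all tested genes and 49.1% of the protein-coding genes of at least 10 CPM were lower. Between 0.15 and 1 µM, 5 of the 7 and 2 of the 9 were lower, beside 34.4% of the protein-coding genes of at least 10 CPM. The genes with the core ran from IARS1 (−2.28) to AARS1 (−0.29) and those without it from FARSB (−1.94) to QARS1 (−0.03), so the groups overlapped. Cytosolic genes with no promoter entry, YARS1, VARS1 and LARS1 among them, are in neither group. Each of these was lower at 1 µM and between 0.15 and 1 µM. YARS1 and VARS1 had the lowest changes of the cytosolic genes at 1 µM. Both medians and both counts therefore leave out strongly lowered genes.

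Structural class and the complex were set beside the response too. Of 18 class I genes, 16 were lower at 1 µM (median −1.57), and of 18 class II genes 12 were lower and 1 higher (median −0.79), with EPRS1, which holds both kinds, left out. At that dose 27.5% of all tested genes were lower and 38.8% higher. Of the protein-coding genes of at least 10 CPM 49.1% were lower and 26.3% higher. Among cytosolic and dual genes alone the classes were close, with 8 of 9 lower for class I (median −1.66) and 8 of 10 for class II (median −1.61). The 8 enzymes of the multi-tRNA synthetase complex, EPRS1, IARS1, KARS1 and LARS1 among them, had 7 lower and a median of −1.51, and the 12 outside it had 10 lower and a median of −1.61. The scaffold genes were all lower at 1 µM. EEF1E1 had 47.6, 56.3 and 56.7 CPM untreated and 8.41, 8.74 and 10.1 at 1 µM (−2.56 ± 0.15), AIMP1 changed by −1.44 and AIMP2 by −0.68.

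Of 13 other genes of aminoacylation and tRNA handling, 8 were lower and 2 higher at 1 µM, beside 27.5% and 38.8% of all tested genes and 49.1% and 26.3% of the protein-coding genes of at least 10 CPM. TRNT1, which adds the CCA end to transfer RNA, changed by −2.03. PSTK, a kinase of selenocysteine synthesis, changed by −1.92. QRSL1 (−1.54), GATB (−1.20) and GATC (−1.47), the subunits of the enzyme that makes mitochondrial glutamine-tRNA, were lower at all 4 doses. The higher genes were SEPHS2, which makes selenophosphate (0.88), and TARS3, a further threonine synthetase gene (0.48).

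ATF4 and other genes of the integrated stress response did not move in a single direction. Of 19 listed genes, 9 were lower and 5 higher at 1 µM, with a median log2 fold change of −0.05. These shares were near the background of 49.1% lower and 26.3% higher among the protein-coding genes of at least 10 CPM. At 0.15 and at 0.25 µM, 11 were lower and 4 higher, with medians of −0.48 and −1.06. Of the same protein-coding genes 41.2% and 49.8% were lower at these doses and 20.8% and 21.4% higher, with medians of −0.29 and −0.42. ATF4 had 411, 396 and 339 CPM untreated and 129, 199 and 131 at 1 µM (−1.32 ± 0.19, adjusted p = 6.09e-06). TRIB3 (−2.70), ATF5 (−2.27), PSAT1 (−2.37), SLC7A11 (−3.72) and SLC7A5 (−1.57) were lower. ATF3 (2.72), CEBPB (2.06), DDIT3 (1.68), SESN2 (1.28) and PPP1R15A (0.60) were higher. ASNS, the asparagine synthetase gene, had 2.13, 2.05 and 2.50 CPM untreated and 1.88, 2.69 and 2.48 at 1 µM, and was not called.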

How the data were processed

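The authors isolated poly(A) RNA, prepared directional libraries, trimmed reads with Trim Galore 0.6.10 and Trimmomatic, aligned them to hg38 with HISAT2 2.2.1 and counted fragments per GENCODE 38 gene with featureCounts 1.5.3. The deposited table holds raw counts, not normalised. Whether counting used the strand is not given in the sources used here. The deposited FPKM files were not used.

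Counts of all 15 libraries were fitted in edgeR 4.0.16 (R 4.3.3) with TMM scaling, filterByExpr (23711 genes kept), the group as the only term and the robust quasi-likelihood F test. The fit had 10 residual degrees of freedom. P-values were adjusted over all tested genes by Benjamini-Hochberg, and called at 0.05. The standard error is the log2 fold change divided by the square root of F. DESeq2 1.42.0 was an alternative. The alternatives are described in the closing section. Depth was 23755510 to 32805574 counts per library, which leaves VARS2 at under 4 CPM the least precise gene.

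Genes were placed with GENCODE 44, a later release on the same build, where 32 of 37 identifiers had the same version. Promoter sequences were taken from RefSeq (GRCh38.p14). Pair ratios used counts with 0.5 added and SciPy 1.17.1. There were 17 pairs, 1 more than had been listed at first, since EPRS1 serves 2 amino acids. Levels per kb used canonical transcript lengths, a choice made after seeing the data. A comparison of protein sequences was not run.

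Genes given with every library were, in each class, those called at 1 µM with the 3 highest and 3 lowest log2 fold changes, and those with the highest and lowest called changes at 0.15 µM. Of the 37 genes, 2 enter the counts, sums and medians but are not reported here by name. No gene was called with opposite signs at 0.15 and 1 µM. AARS1, QARS1, SARS1, VARS2, EEF1E1, ATF4 and ASNS were chosen after their values were seen. The members and lists were chosen with earlier results of these data known. Between groups, libraries sharing a number had correlated deviations (above 0.1) in 3 of 30 pairs (range −0.07 to 0.58). These were the 3 pairs between 0.25 and 0.5 µM, for which the blocked result is given beside the unblocked one. The block was fitted over all 15 libraries, so it assumed the same pairing in every group. The reported fit used no pairing. Libraries of a group all differed by more than counting noise (chi-square over degrees of freedom of 5.85 or more).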

Additional observations from a re-analysis of the deposited data

How the results depend on the processing

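The 27 counts of called synthetase genes were recomputed under 24 alternatives, 15 of them leaving out a library each, which gave 648 values. Of these, 45 values in 13 counts moved by over 1.5 times, and the cause was not tested. With library totals, 1 cytosolic gene was higher at 0.15, at 0.5 and at 1 µM (0 as reported). Mitochondrial genes were then 7 lower at 0.15 µM (11 as reported) and 7 at 0.25 µM (13), and 1, 2, 3 and 3 higher at the 4 doses (0, 0, 0 and 1). TMM scaling on genes of at least 10 CPM gave 1 cytosolic gene higher at 0.5 and at 1 µM, 7 mitochondrial genes lower at 0.25 µM, and 1, 1, 3 and 3 higher. A minimum of 10 counts in every library gave 3 mitochondrial genes higher at 0.5 and at 1 µM. At 1 µM, no filter gave 0 and only the compared groups 2. Without the third libraries at 0.25 and 0.5 µM, chosen after seeing the data, 1 was higher at 0.5 µM. From 0.15 to 0.25 µM, 6 (RLE factors), 7 (library totals and TMM from genes of at least 10 CPM) and 4 (only the compared groups) were lower instead of 12. From 0.25 to 0.5 µM, 13 (library totals) and 4 (only the compared groups) were lower instead of 8, and 8 were higher instead of 4 without the third libraries. From 0.15 to 1 µM, 4 (RLE factors, DESeq2) and 5 (TMM from genes of at least 10 CPM, the minimum of 10 counts, without the third libraries) were higher instead of 2. Leaving out a library each gave 0 to 1 mitochondrial genes higher at 1 µM, 3 to 15 lower from 0.15 to 0.25 µM, 5 to 8 lower and 3 to 8 higher from 0.25 to 0.5 µM, and 1 to 5 higher from 0.15 to 1 µM. With the replicate block, 27 and 29 genes were lower at 0.15 and 1 µM, as without it, and no other count moved past 1.5 times. Of 720 values of the named genes, 27 lost and 8 gained a call, and 0 that were called in either fit changed sign. Values called in neither changed sign with library totals and with TMM scaling on genes of at least 10 CPM for PARS2 at 0.15 µM (0.28 and 0.17 instead of −0.09, and 0.09 with the minimum of 10 counts) and HARS2 at 1 µM (0.0023 and 0.031 instead of −0.35). Low counts limit VARS2 and SARS2.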
